A study of Mus musculus with 18 samples.

Results

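The Hes, Hey and Id genes encode repressors of the helix-loop-helix family, and their mRNA levels were read here in differentiating mouse embryonic stem cells with and without knockdown of HPRT, the purine salvage enzyme whose deficiency causes Lesch-Nyhan disease. The set was chosen by gene symbol: Hes1, Hes5, Hey1, Hey2, Heyl, Id1, Id2, Id3 and Id4, which is 9 of the 30869 symbols on the array. They were measured by 12 of its 45281 probes. Hes5, Hey2 and Id2 each had a second probe, and each gene is given below by its brighter probe. The array annotation places Hes5, Heyl and Id3 on chromosome 4, Id1 on 2, Hey1 on 3, Hey2 on 10, Id2 on 12, Id4 on 13 and Hes1 on 16.

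The cells were ESD3, a mouse embryonic stem cell line of strain 129s2/SvPas. WT control cells carried an shRNA against luciferase and HPRT-knockdown cells an shRNA against HPRT. The labels call the vector a retrovirus, the study's methods call it a lentivirus and state selection with puromycin. Both cell types were measured at the ES stage, grown on mouse embryo fibroblast feeders with LIF and bFGF, at the spherical neural mass (SNM) stage, an expanding sphere of neural precursors, and at the end of a dopaminergic differentiation (neuronal stage). Each of the 6 conditions had 3 arrays, 18 in all, but the RNA of replicated cultures was pooled first, so the 3 arrays of a condition repeat 1 pool. The p-values below therefore measure the spread between arrays and not between cultures. The HPRT shRNA had been designed against the human gene.

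Hes and Hey proteins are basic helix-loop-helix repressors that bind DNA and recruit Groucho corepressors. Many of them are direct targets of Notch: a ligand on a neighbouring cell releases the intracellular part of the receptor, which joins RBPJ on the DNA and activates these genes. Id proteins have no DNA-binding region. They capture E proteins, the partners that proneural and myogenic activators need, and their genes are classical targets of BMP signalling through Smad proteins. In the developing nervous system both groups are known for keeping progenitors undifferentiated and for acting in the choice between neurons and glia. Hey genes also act in blood vessels and heart, and Id2 and Id4 in the timing of oligodendrocyte differentiation.

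Promoters are shown for Hes5, Hey2 and Id4 because, of the genes with a promoter entry, these were the ones called between the cell types below. The sequences are from RefSeq (GRCm38.p6), 250 bases up to the transcription start, 5′ to 3′ on the strand of the gene. The RefSeq table held entries for 5 of the 9 genes, Hes5, Hey2, Id2, Id3 and Id4, and none for Hes1, Hey1, Heyl and Id1. In Hes5 (chr4:154960673-154960922, plus strand) and Hey2 (chr10:30842784-30843033, minus strand) the capitals mark GTGGGAA, a sequence that RBPJ binds, on either strand. In Id4 (chr13:48260866-48261115, plus strand) they mark GGCGCC, a GC-rich sequence that BMP Smads bind and that reads the same on both strands.
Hes5: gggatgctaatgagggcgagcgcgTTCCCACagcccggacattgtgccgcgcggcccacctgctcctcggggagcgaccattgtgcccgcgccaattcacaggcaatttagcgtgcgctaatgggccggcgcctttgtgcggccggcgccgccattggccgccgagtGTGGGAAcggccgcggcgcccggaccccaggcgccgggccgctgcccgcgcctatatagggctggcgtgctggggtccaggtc
Hey2: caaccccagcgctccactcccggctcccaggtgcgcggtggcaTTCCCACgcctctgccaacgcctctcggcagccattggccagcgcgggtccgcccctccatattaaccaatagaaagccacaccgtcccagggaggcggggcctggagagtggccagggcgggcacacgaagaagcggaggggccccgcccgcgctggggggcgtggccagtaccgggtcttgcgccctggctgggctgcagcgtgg
Id4: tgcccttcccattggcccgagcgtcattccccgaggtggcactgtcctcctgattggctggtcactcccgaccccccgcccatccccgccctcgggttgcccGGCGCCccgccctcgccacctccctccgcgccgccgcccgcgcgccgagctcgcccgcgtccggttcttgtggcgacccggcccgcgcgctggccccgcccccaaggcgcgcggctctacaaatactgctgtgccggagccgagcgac

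The Hes5 promoter held 2 GTGGGAA matches, 1 on each strand, at 226 to 220 and 83 to 77 bases before the start. The Hey2 promoter held 1, on the other strand, at 207 to 201 bases before the start. The letters were not in the windows of Id2, Id3 and Id4. Over all 32851 promoters of the table, 5.42% held GTGGGAA in the same 250 bases. GGCGCC was found 4 times in Hes5, once in Id2 and once in Id4, at 148 to 143 bases before the start, and in 9.59% of all promoters. CACNAG, the N box to which Hes proteins bind, was found in Id4 alone of the 5 windows and in 36.7% of all promoters, searched on both strands. The GTGGGAA and GGCGCC matches did not overlap. A match describes the letters and not a bound site.

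Signals are given on the log2 scale after background correction and quantile normalization. A comparison tested the probes detected, with a detection p under 0.05, by each of the 3 arrays of 1 or more of its conditions. A probe was called higher or lower at a Benjamini-Hochberg adjusted p under 0.05 in limma with a difference of at least 1.5-fold. Between 18827 and 22202 probes were detected on an array, and arrays of a condition correlated at 0.992 to 0.997. Hprt1 signal was lower in the HPRT-knockdown cells by 94.1% in ES cells, 70.5% in SNMs and 95.4% in neuronal cultures. Of the pluripotency markers 7 of 7 were detected on every ES array of both cell types. Of 10 neuron markers 9 were detected on all control neuronal arrays, with Snap25 on none, and 8 on all knockdown neuronal arrays, with Snap25 and Tubb3 on none.

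At the ES stage the knockdown left no called difference in these genes. Only Hes1, Hey1, Id1, Id2, Id3 and Id4 were detected there, and 0 of these 6 were called by limma, under the main setting or any alternative run, the test that the study's methods name included. At an unadjusted p under 0.05 the number was 2. Hes1 read 8.21, 8.28 and 8.31 in the control and 8.70, 8.51 and 8.48 in the knockdown (+0.30), and Id2 read 8.09, 7.62 and 7.90 against 7.21, 7.49 and 7.43 (-0.49), neither with overlapping arrays. Over all probes tested at this stage 0.516% were called higher and 1.17% lower. Hes5, Hey2 and Heyl were detected on 0 of 3 arrays in both cell types, so for them only an upper limit existed in ES cells.

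In SNMs 2 of the 9 genes were called higher in the knockdown cells, Hey1 and Id4, and none lower, while 11% of all probes tested were called higher and 8.9% lower. An adjusted p under 0.05 was reached by 7 of the 9, the other 5 staying under 1.5-fold. In neuronal cultures 2 genes were called higher, Hey1 and Hey2, and 2 lower, Hes5 and Heyl, of 9 tested. Heyl entered that test only through the control arrays, being detected on 0 of 3 knockdown arrays. The corresponding shares of all probes were 13.9% higher and 13.5% lower. The median difference of the 9 genes was +0.44 at the SNM stage, with -0.04 over all probes, and +0.28 at the neuronal stage, with +0.01 over all probes.

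**Figure D1:**
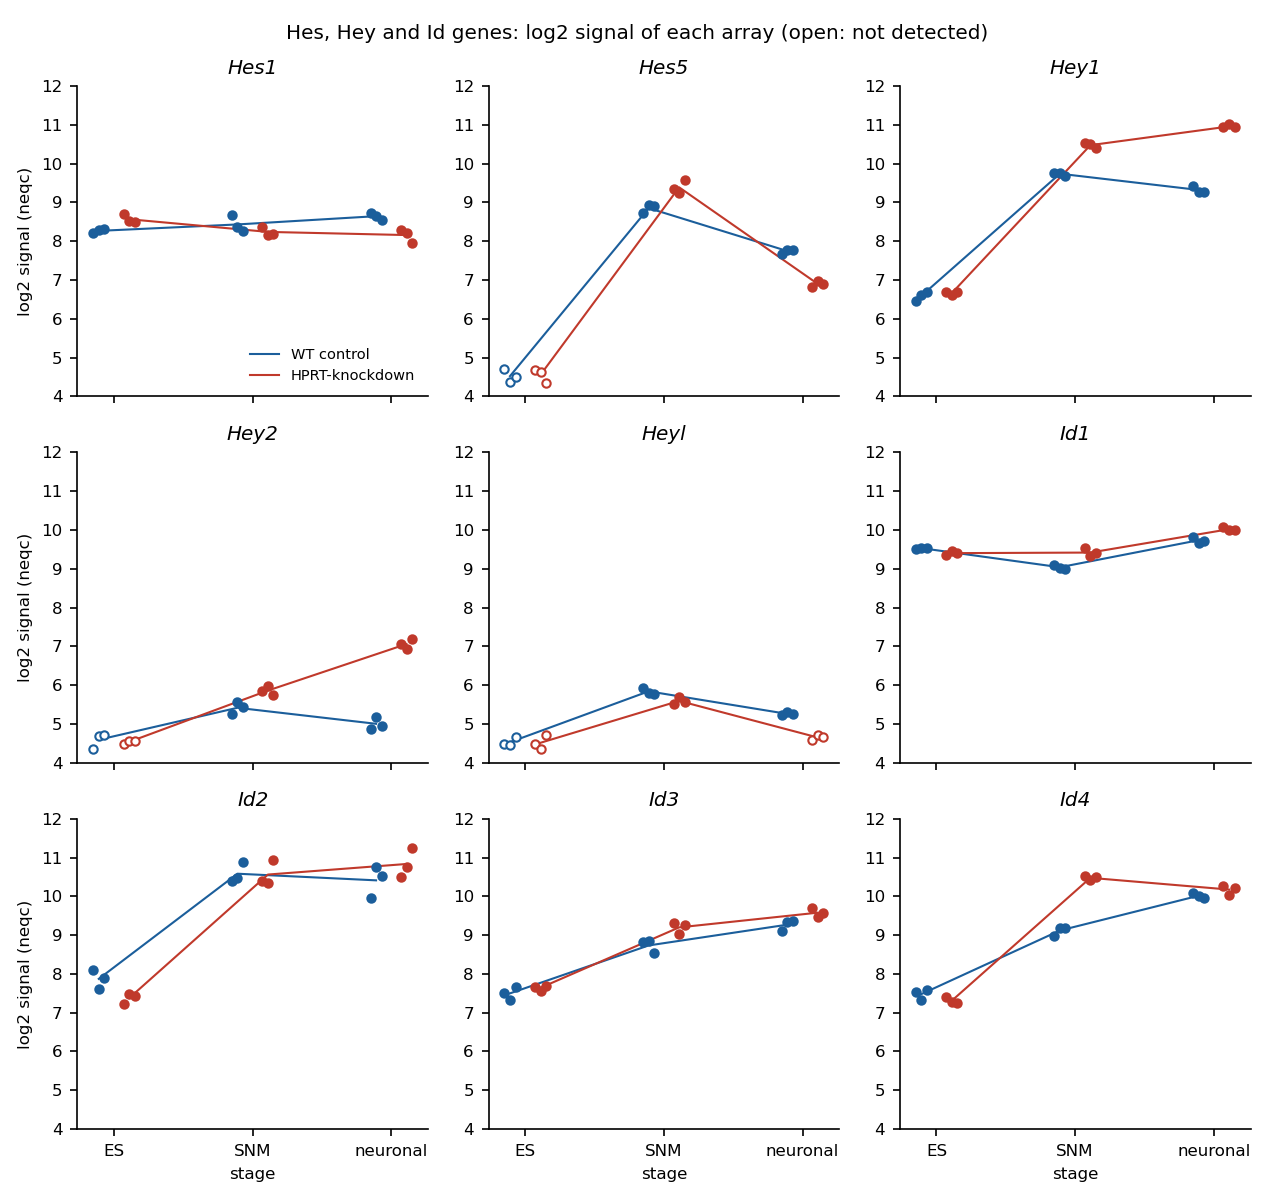
Log2 signal (vertical axis) of each array at the ES, SNM and neuronal stage (horizontal axis) for the 9 genes, WT control in blue and HPRT-knockdown in red; each point is 1 array, open where the probe was not detected, and lines join the means of 3 arrays. Hey1 and Hey2 separate furthest at the neuronal stage, Id4 at the SNM stage, and the Hes5 lines cross between the SNM and the neuronal stage.

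Hes1 maintains progenitors in many tissues and is also made by embryonic stem cells. Its signal stayed in a narrow band. The lowest of the 18 arrays was 7.95 and the highest 8.72, and the 6 condition means differed by at most 0.49. In the order of those means, from control neuronal at 8.64 down to knockdown neuronal at 8.16, every neighbouring pair had overlapping arrays. The largest knockdown difference was at the neuronal stage. There the control arrays read 8.72, 8.65 and 8.56 and the knockdown arrays 8.30, 8.22 and 7.95, without overlap. The difference of -0.49 ± 0.11 (SE) had an adjusted p of 0.00097 but stayed under 1.5-fold, so Hes1 was not called in any comparison.

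Hes5, a Notch target of neural progenitors and a standard readout of Notch activity there, went from undetected to clearly detected. On ES arrays it read 4.36 to 4.71 in the control and 4.35 to 4.69 in the knockdown, with detection on 0 of 3 arrays in each. SNM arrays of the control read 8.72, 8.93 and 8.91 and those of the knockdown 9.35, 9.24 and 9.58. Neuronal arrays read 7.68, 7.78 and 7.78 in the control and 6.83, 6.97 and 6.89 in the knockdown. The knockdown arrays were thus all above the control at the SNM stage and all below it at the neuronal stage. The SNM difference was +0.54 ± 0.11 (SE, adjusted p = 0.00054), a 1.45-fold difference that was not called, but that passed 1.5-fold, at +0.61, without the second knockdown SNM array. The neuronal difference was -0.85 ± 0.11 (SE, adjusted p = 4.2e-06), 1.80-fold lower in the knockdown cells.

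The change of Hes5 along the differentiation was a rise and then a fall in both cell types. From ES to SNM it was higher by at least 15.8-fold in control cells and at least 21.9-fold in knockdown cells, counted against the lowest detected signal because the ES arrays gave only a limit. The fitted steps, +4.33 and +4.83, were +2.70 to +2.98 and +3.14 to +3.41 without background correction. From SNM to neuronal it fell by 1.11 in control and by 2.49 in knockdown cells (adjusted p = 1.9e-07 and 1.1e-11). The knockdown difference itself shifted by -1.38 ± 0.15 (SE, adjusted p = 1.3e-06) between the SNM and the neuronal stage. The second Hes5 probe moved with the first (r = 0.99 over the 18 arrays) and gave -0.78 for the knockdown difference at the neuronal stage and -1.29 for the shift.

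Hey1, a Notch target of progenitors and of vessels, was detected on every array. It read 6.45, 6.63 and 6.69 in control ES cells and 6.70, 6.60 and 6.68 in knockdown ES cells, which overlapped. At the SNM stage the control arrays read 9.77, 9.77 and 9.68 and the knockdown arrays 10.54, 10.50 and 10.39. Neuronal arrays read 9.43, 9.27 and 9.26 against 10.93, 11.01 and 10.93. The knockdown arrays were all higher at both later stages and the gap was wider at the last. The difference was +0.74 ± 0.07 in SNMs and +1.64 ± 0.07 in neuronal cultures (SE, adjusted p = 2.5e-07 and 6.2e-12), that is 1.67-fold and 3.11-fold.

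In control cells Hey1 declined by 0.42 from SNM to neuronal, and in knockdown cells the same step was +0.48. Both steps passed the adjusted p (6.7e-05 and 1.6e-05) with arrays that did not overlap, and both were under 1.5-fold. The shift of the knockdown difference from SNM to neuronal was +0.90 ± 0.10 (SE, adjusted p = 1.2e-06). That from ES to SNM was +0.67 ± 0.10 (SE, adjusted p = 5.7e-05), a call that was lost at +0.55 with scaling to the upper quartile and at +0.54 without scaling between arrays.

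Hey2, known from the heart and from arterial vessels as well as from neural progenitors, had the widest gap at the neuronal stage with background correction, and Hey1 the widest without it. Its ES arrays, 4.37 to 4.72 in the control and 4.49 to 4.57 in the knockdown, were all undetected. SNM arrays read 5.25, 5.56 and 5.44 in the control and 5.86, 5.98 and 5.74 in the knockdown. In neuronal cultures the control arrays read 4.87, 5.19 and 4.95 and the knockdown arrays 7.05, 6.94 and 7.19. The control stayed close to the lower end of the detected range while the knockdown moved away from it. The neuronal difference was +2.06 ± 0.11 (SE, adjusted p = 1.3e-10), 4.16-fold. It was +1.18 to +1.26, against +1.53 to +1.57 for Hey1, where the background was not corrected, a setting that by construction shrinks the folds of dim probes.

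The knockdown difference of Hey2 was +0.44 ± 0.11 at the SNM stage (SE, adjusted p = 0.0030), under 1.5-fold, and shifted by +1.61 ± 0.16 (SE, adjusted p = 3.3e-07) towards the neuronal stage. From SNM to neuronal Hey2 rose by 1.20 in knockdown cells, and the control step was -0.41, which was not called. The second Hey2 probe gave +2.09 at the neuronal stage and, at the SNM stage, +0.29, which did not pass the adjusted p (0.061 in limma). It differed from the first in 1 call: its control step from SNM to neuronal, -0.60, was called lower, with 1 of 3 control neuronal arrays detected.

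Heyl, found in vascular smooth muscle and in neural and myogenic cells, went the other way from Hey1 and Hey2. It was undetected on all 6 ES arrays. In SNMs the control arrays read 5.93, 5.80 and 5.78 and the knockdown arrays 5.52, 5.69 and 5.57. Later, in neuronal cultures, the control arrays read 5.23, 5.30 and 5.25, and the knockdown arrays 4.59, 4.70 and 4.65, with detection on 0 of 3. The control arrays were above the knockdown arrays at both stages. Heyl was at the neuronal stage at least 1.43-fold lower in the knockdown cells, a bound under the 1.5-fold limit, with a fitted difference of -0.61 ± 0.08 (SE, adjusted p = 1.1e-05). That call was lost with no background correction (-0.26 to -0.32 under 3 settings) and without the first knockdown neuronal array (-0.58). The SNM difference was -0.25 (adjusted p = 0.021), under 1.5-fold.

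**Figure D2:**
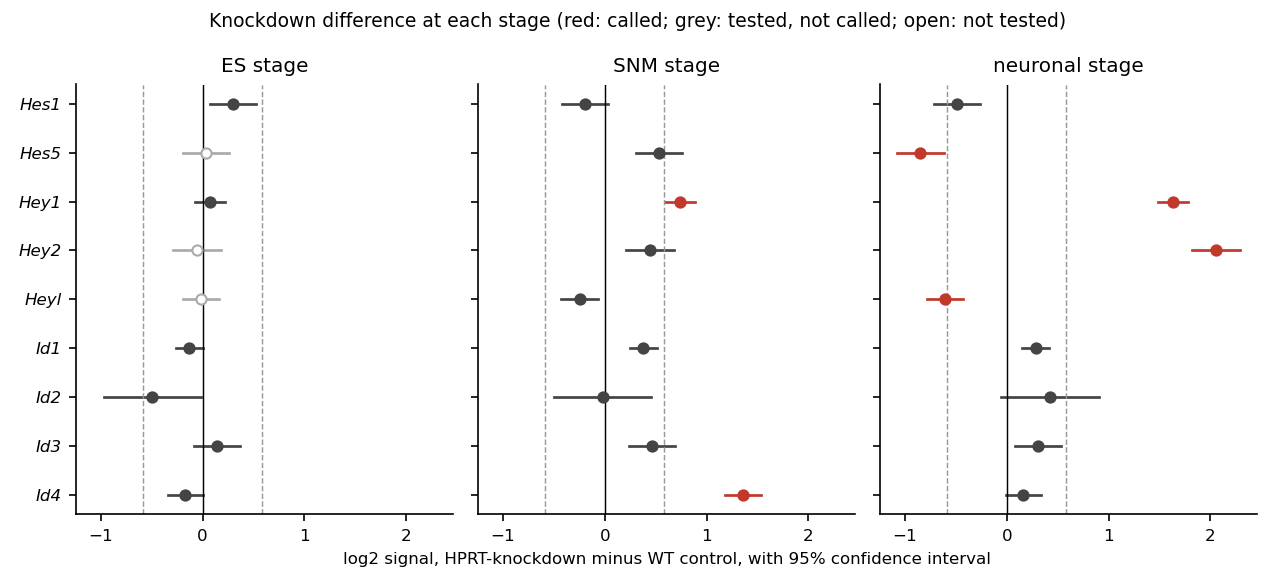
Difference in log2 signal between HPRT-knockdown and WT control cells (horizontal axis) with its 95% confidence interval for each gene (vertical axis) at the 3 stages; dashed lines mark 1.5-fold, red points were called, dark points were tested and not called, and open points were not tested. Calls appear at the SNM stage for Hey1 and Id4 and at the neuronal stage for Hes5, Hey1, Hey2 and Heyl.

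Of the Id genes, Id4 was the member that was called between the cell types. Id4 opposes proneural and oligodendrocyte activators in neural precursors. Its ES arrays read 7.53, 7.32 and 7.58 in the control and 7.40, 7.27 and 7.24 in the knockdown, overlapping. SNM arrays read 8.99, 9.18 and 9.19 against 10.51, 10.41 and 10.50. Neuronal arrays read 10.07, 10.01 and 9.96 against 10.27, 10.04 and 10.22, again overlapping. The knockdown SNM arrays were thus above all control arrays of either later stage. The SNM difference was +1.36 ± 0.08 (SE, adjusted p = 1.5e-09), 2.56-fold.

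In neuronal cultures the Id4 difference was +0.16, with a 95% interval of -0.01 to 0.33 (adjusted p = 0.10). The difference shifted by +1.53 ± 0.11 from ES to SNM and by -1.20 ± 0.11 from SNM to neuronal (SE, adjusted p = 5.2e-08 and 3.0e-07). In control cells Id4 rose in both steps, by 1.64 and then by 0.90. In knockdown cells it rose by 3.17 to the SNM stage, and the next step was -0.30, not called.

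Id1, the Id gene most widely used as a readout of BMP signalling, was detected on every array. Its knockdown difference was -0.13 in ES cells, +0.38 ± 0.06 in SNMs and +0.28 ± 0.06 in neuronal cultures (SE, adjusted p = 9.2e-05 and 0.00091 for the last 2), all under 1.5-fold. The mean of the control SNM arrays, 9.04 ± 0.05 (SD, n = 3), was the lowest of the 6 conditions and that of the knockdown neuronal arrays, 10.02 ± 0.04 (SD, n = 3), the highest. From SNM to neuronal Id1 rose by 0.70 in control and by 0.60 in knockdown cells. Both values are near the 1.5-fold limit: the control call was lost at +0.55 with upper-quartile scaling and +0.57 without scaling. The knockdown call was lost at +0.57 under quantile normalization with no background correction, at +0.56 without scaling, at +0.55 without the second knockdown SNM array and at +0.58 without the first knockdown neuronal array.

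Like Hes5, Hey1 and Id4, the genes Id2 and Id3 moved with the differentiation more than with the knockdown. Id2 acts in neural precursors and in oligodendrocyte timing. Its arrays spread widely, with an SD of 0.41 in control neuronal cells, whose arrays read 9.95, 10.75 and 10.53, against 10.50, 10.75 and 11.25 in the knockdown. By the second Id2 probe the SD was 0.03 in control neuronal cells and 0.45 in knockdown SNMs. Its neuronal knockdown difference was +0.30 (95% interval -0.04 to 0.65), also not called. The knockdown difference of Id2 was -0.49 (95% interval -0.97 to -0.01), -0.02 (-0.50 to 0.46) and +0.42 (-0.06 to 0.90) at the 3 stages, with adjusted p of 0.18, 0.95 and 0.12. Intervals this wide leave room for differences over 1.5-fold at the ES and neuronal stages. Id3, which restrains differentiation in neural and vascular cells, was higher in the knockdown by 0.47 ± 0.11 in SNMs and 0.31 ± 0.11 in neuronal cultures (SE, adjusted p = 0.0016 and 0.020), under 1.5-fold in both.

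From the ES to the SNM stage 7 of the 9 genes rose in each cell type: Hes5, Hey1, Hey2, Heyl, Id2, Id3 and Id4. In control cells 23.7% of all probes were called higher and 25.4% lower, against 26.4% and 30.9% in knockdown cells. Hes5, Hey2 and Heyl entered this test only through the SNM arrays, so their rise follows in part from the detection rule. Of the 7, those detected at both stages were Hey1, Id2, Id3 and Id4. Hey1 rose by 3.15 in control and 3.82 in knockdown cells, Id2 by 2.71 and 3.18, Id3 by 1.24 and 1.56, and Id4 by 1.64 and 3.17. With their limits as the base, Hey2 was at least 1.46-fold and at least 1.90-fold higher, and Heyl at least 1.96-fold and at least 1.58-fold. These limits rest on the background correction: without it the control step of Hey2 was +0.12 to +0.39 and not called, and Heyl lost its call with upper-quartile scaling (+0.36 and +0.32) and, in knockdown cells, under quantile normalization (+0.51), while the knockdown step of Hey2 lost it with upper-quartile scaling (+0.44). Hes1 and Id1 were not called. The step of Id1 was -0.49 in control cells (adjusted p = 2.2e-06) and +0.02 in knockdown cells.

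From SNM to neuronal the genes divided. In control cells Id1 and Id4 rose and Hes5 fell, 2 higher and 1 lower of 9, with 14.3% and 15.1% over all probes. In knockdown cells Hey2 and Id1 rose and Hes5 and Heyl fell, 2 higher and 2 lower of 9, with 13.8% and 14.8%. Heyl entered the knockdown test only through the SNM arrays, being detected on 0 of 3 knockdown neuronal arrays, so its fall follows in part from the detection rule. The knockdown fall of Heyl was at least 1.80-fold, a call lost in all 3 settings without background correction (-0.42 to -0.53). Its control step, -0.58, lay at the 1.5-fold limit. Leaving out the second control SNM array brought the control count to 5, with Heyl and Id3 added.

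**Figure D3:**
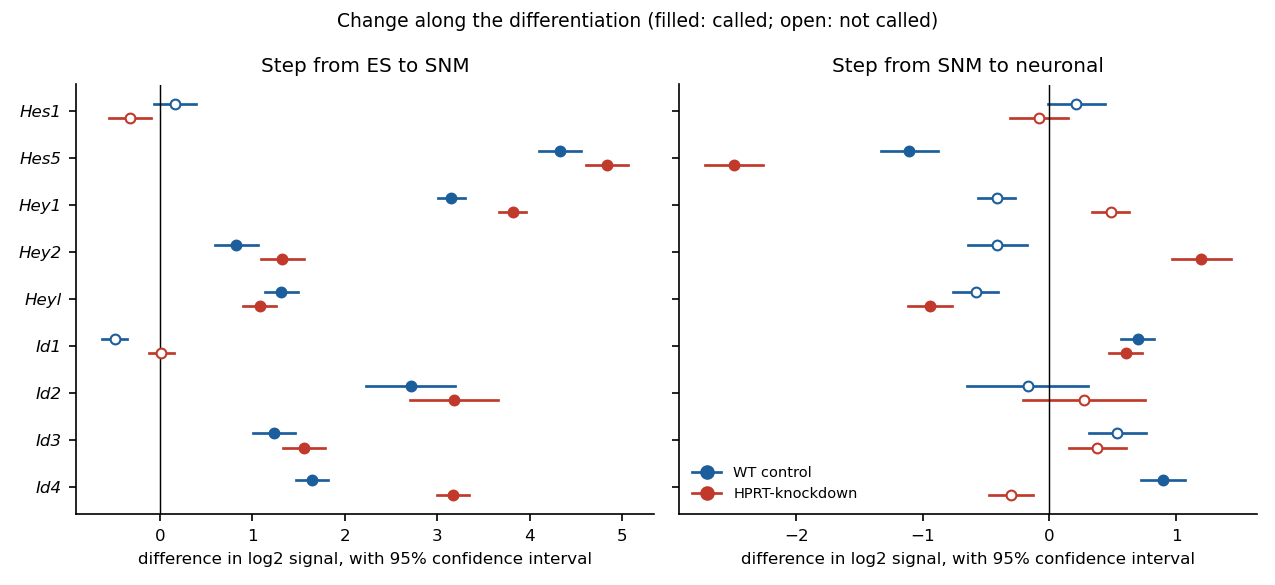
Difference in log2 signal (horizontal axis) with its 95% confidence interval for each gene (vertical axis) from ES to SNM (left) and from SNM to neuronal (right) in WT control (blue) and HPRT-knockdown (red) cells; filled points were called. The left panel shows 7 genes called higher in both cell types, and the right panel shows Hey1, Hey2 and Id4 on opposite sides of 0 in control and knockdown cells, with intervals that leave out 0.

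Whether the knockdown difference changed between stages was tested directly. From ES to SNM it rose for Hey1 and Id4, 2 of 9, with none lower, and 11.7% of all probes were higher and 9.61% lower in that test. From SNM to neuronal it rose for Hey1 and Hey2 and fell for Hes5 and Id4, 2 and 2 of 9, with 13.7% and 14.8% of all probes. These 2 tests share the SNM arrays. Without the first control ES array the ES to SNM shift of Hey2 (+0.50) was also called, at +0.61. For Id2 the shifts, +0.47 and +0.44, had 95% intervals of -0.21 to 1.15 and -0.23 to 1.12.

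The 9 genes did not follow 1 pattern over the 18 arrays. Id3 and Id4 correlated at r = 0.97, Hey1 with Id3 at 0.95 and with Id2 and Id4 at 0.95, and Hes5 with Heyl at 0.90. Hes1 correlated with Hey2 at -0.57 and Id1 with Heyl at -0.55. These points share 6 pools and the 3 stages, so the values describe the shape of the profiles. Among 9200 other genes, those whose profile was most like that of Hes5 were Prr7 (r = 0.99), Tusc1 and 4833414E09Rik. For Hey1 they were Papss1 (0.998), Rftn2 and Timp4, for Heyl Cart (0.97), Insm1 and Dicer1, and for Id2 4930402I24Rik (0.99), Rhobtb3 and LOC672274. For Id3 they were Rab34 (0.99), Gorasp2 and 2310047A01Rik and for Id4 Maged1 (0.99), Hist2h2aa1 and C330002I19Rik.

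For Hey2 the most similar profiles were those of Lgi3 (r = 0.99), Atg16l2 and Nkx2-2 (0.98). Nkx2-2 is a homeodomain factor of ventral neural progenitors and of the oligodendrocyte lineage. Its mean was 6.04 in control and 11.36 in knockdown neuronal cells, and that of Lgi3 was 5.01 and 9.69. Hey1's neighbour Timp4, an inhibitor of metalloproteases, went from 7.60 to 9.46 and Heyl's neighbour Insm1, a zinc finger factor of newborn neurons, from 7.87 to 6.38.

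Among the genes that carry the Notch signal to Hes and Hey genes, calls at the neuronal stage, both directions together, were about as frequent as over all probes. Of 36 Notch pathway genes listed 34 were on the array and 29 were tested, of which 6 were higher and 2 lower in knockdown cells (13.9% and 13.5% of all probes), with a median of +0.10 over the tested genes and +0.01 over all probes. The receptor Notch1 was higher by 0.70 ± 0.10, and Notch3 (+0.04) and Notch4 (-0.33) were not called. Among ligands Dll1 fell by 0.67 ± 0.11 and Dll3, a divergent ligand that does not activate the receptor in trans, rose by 1.41 ± 0.17. Jag1 was at +0.22. Of the proteases that release the receptor's intracellular part, Psenen (+0.77) and Adam17 (+0.84) were higher, and Neurl1a, a ubiquitin ligase that acts on ligands, was lower by 2.29 ± 0.07 (SE, adjusted p = 1.25e-13).

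In SNMs 2 Notch pathway genes were higher, Dtx1 (+0.99) and the coactivator Maml2 (+0.82), and 2 lower, Dll3 (-0.70) and Dtx4 (-0.71), of 29 tested, not more often than the 11% and 8.9% of all probes. At the ES stage Notch4 (+0.86) and Psen2 (+0.71) were higher and none was lower, of 28, beside 0.516% and 1.17% of all probes. The probe of Rbpj was detected on at most 1 of 3 arrays in any condition, so no level could be given for it. Nrarp, a Notch target and inhibitor outside the Hes and Hey families, was at -0.19, -0.34 and +0.10 at the 3 stages and was not called, while in both cell types it rose to the SNM stage (+3.57 and +3.41) and fell afterwards (-1.59 and -1.14).

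Of the other Hes-type repressors and the Groucho corepressors 13 were on the array. Of these 8 were tested at the neuronal stage, with Tle6 (+1.63) and Bhlhe40 (+0.71) higher and Hes6 (-1.15) and Tle1 (-0.84) lower, beside 13.9% and 13.5% of all probes. Hes6 opposes Hes1 and favours neuronal differentiation, and its control neuronal mean was 10.14 against 8.99 in the knockdown. In SNMs Bhlhe40 (+0.83) and Tle2 (+0.75) were higher and Hes3 lower by at least 1.34-fold, of 9 tested, beside 11% and 8.9% of all probes. The Hes3 bound is under the limit of 1.5-fold. Hes3 was detected on no knockdown SNM array and entered the test only through the control arrays, so its direction follows in part from the detection rule. None of 7 was called at the ES stage.

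On the side of the Id genes, 23 of 24 BMP pathway genes were on the array. At the SNM stage, where Id4 was higher, 5 of 14 tested were higher and 2 lower, with a median of +0.24, beside 11% higher, 8.9% lower and a median of -0.04 over all probes. The ligands Bmp5 (+0.86) and Bmp7 (+0.62), the receptor Bmpr1b (+0.99) and the BMP antagonist Chrd (+0.76) were among the higher ones. Fst, an activin antagonist, and the receptor Acvr2b were lower (-1.07 and -0.68). In neuronal cultures, where 13.9% of all probes were higher and 13.5% lower, 3 of 16 were higher, Bmp4 (+1.75 ± 0.08), Bmp7 (+1.00) and Grem1 (+1.11), and 4 lower, Fst (-1.74), Acvr2a (-0.76), Acvr2b (-0.73) and Bmp6 (-0.66). At the ES stage Grem1 alone was called, lower by at least 1.44-fold, of 13. That bound is under the 1.5-fold limit. Grem1 was detected on no knockdown ES array and entered the test only through the control arrays, so its direction follows in part from the detection rule.

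Id proteins act through E proteins, and none of the probes taken for the 3 E protein genes was called between the cell types at any stage. For Tcf3 the array was searched for that symbol before the older symbol Tcfe2a. Whether the probe so taken reads the E protein gene was not checked, so the Tcf3 values below stand for the symbol only. The neuronal differences were +0.18 for Tcf3, +0.18 for Tcf4 and -0.18 for Tcf12, of which the first and the last passed the adjusted p (0.012 and 0.013). Tcf12 was also at -0.33 in ES cells and -0.37 in SNMs. From ES to SNM Tcf12 rose by 2.43 in control and 2.39 in knockdown cells and Tcf4 by 1.02 and 1.41, while Tcf3 fell by 0.87 and 0.91.

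Hes, Hey and Id proteins oppose the activator helix-loop-helix genes. In neuronal cultures 3 of these were higher and 8 lower of 13 tested, with a median of -1.03, beside 13.9% higher, 13.5% lower and a median of +0.01 over all probes. The calls of largest size are named and the others are not. The 8 lower calls were not confined to myogenic factors. Olig1 (+2.09 ± 0.14) and Olig2 (+2.08 ± 0.10, SE), of the oligodendrocyte lineage, were higher. The myogenic factors Myog and Myf6 were lower by at least 17.8-fold and at least 11.3-fold, with 0 of 3 knockdown arrays detected. Both entered the test only through the control arrays, so their direction follows in part from the detection rule. The count of 8 and the median of -1.03 include them. Any link of these calls to the Hes, Hey and Id genes was not tested. In SNMs Neurod4 (-2.07), a proneural factor, was lower and Myog (+0.65) higher, of 10 tested.

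**Figure D4:**
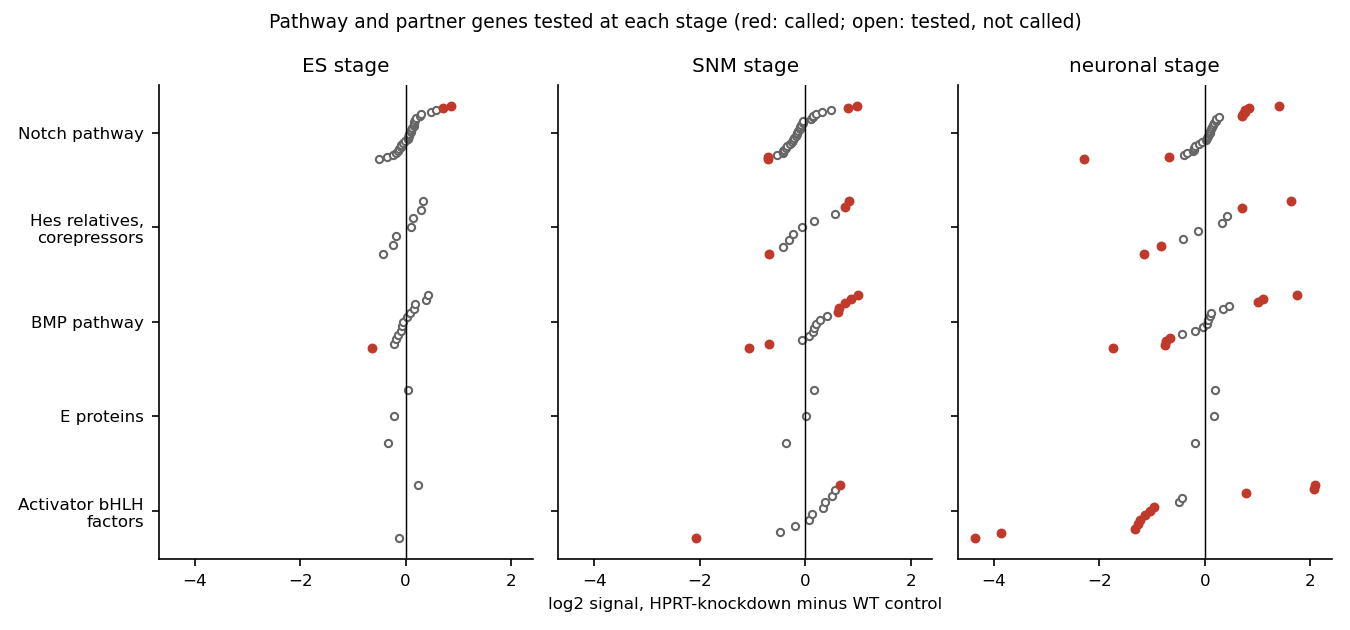
Difference in log2 signal between HPRT-knockdown and WT control cells (horizontal axis) for the tested genes of 5 lists (vertical axis; within a list genes are sorted by value) at the 3 stages; red points were called and open points were not. The probes taken for the E proteins lie between -0.37 and 0.18 at all stages. At the neuronal stage 8 activator helix-loop-helix genes were called lower and 3 higher. Some of the lower ones, such as Myog, were not detected in the knockdown, and their points are fitted values and not bounds.

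The markers of several cell types moved with these results. In RNA from a whole culture, fewer cells of a type and less RNA per cell cannot be told apart. In neuronal cultures the summed signal of 10 oligodendrocyte markers was 825 to 918 on control arrays, with 7 detected on all arrays and Mog on none, and 43678 to 48736 on knockdown arrays, with all 10 detected. That of 10 skeletal muscle markers was 83882 to 85016 in the control, all detected, and 391 to 522 in the knockdown, with Ckm, Myog and Tnnt3 on no array. Endothelial markers, of a cell type in which Hey genes act, summed to 4232 to 4401 in control and 1661 to 1674 in knockdown neuronal cells (10 markers, 4 and 5 detected on all arrays). By gene the endothelial list was mixed, with Vwf higher, Emcn and Cdh5 lower and 2 not called of 5 tested, and bright Emcn carried the sum. Smooth muscle and pericyte markers summed to 13370 to 14390 and 6984 to 7051 (7 markers, 4 detected on all arrays in each), a sum carried by Acta2, which was lower, while Cspg4 was higher (+1.18), 2 of 4 tested were not called and the median was +0.05.

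Neuron markers summed to 11272 to 12234 in control and 5634 to 6505 in knockdown neuronal cells, with 6 of 9 tested lower and none higher. Astrocyte and radial glia markers, all 10 detected in both, summed to 13366 to 14955 and 16085 to 17715, with 6 higher and 1 lower. Fibroblast markers summed to 20684 to 24007 and 10867 to 14292, with 6 of 8 lower and none higher, and pluripotency markers to 3653 to 3814 and 1029 to 1100, with 5 of 6 lower and none higher. In SNMs, where Id4 and Hey1 were higher in the knockdown, the astrocyte and radial glia sum was 14262 to 15974 in control and 20652 to 21525 in knockdown cells, and the oligodendrocyte sum 6779 to 7496 and 2180 to 2548. In the same SNMs skeletal muscle markers summed to 1699 to 1761 in control and 3276 to 3536 in knockdown cells, with 8 of 9 tested higher, and pluripotency markers to 4464 to 4793 and 2963 to 3081, with 4 of 6 lower. The smooth muscle and pericyte sum there was 737 to 785 and 2277 to 2338, with Acta2 alone called, of 4 tested. Neural progenitor markers summed to 1490 to 1522 in control and 1729 to 2202 in knockdown neuronal cells, with 3 of 5 detected and Sox1 and Msi1 on no array. Sox2 (+1.13) carried that sum, while Nes (-1.97) and Pax6 (-0.62) were lower. The markers of microglia had at most 1 of 6 detected on all arrays of any condition. At the ES stage fibroblast markers, which the feeder cells also carry, summed to 394 to 433 and 332 to 349. The part of these cell types in the differences of Hes, Hey and Id genes was not tested.

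**Figure D5:**
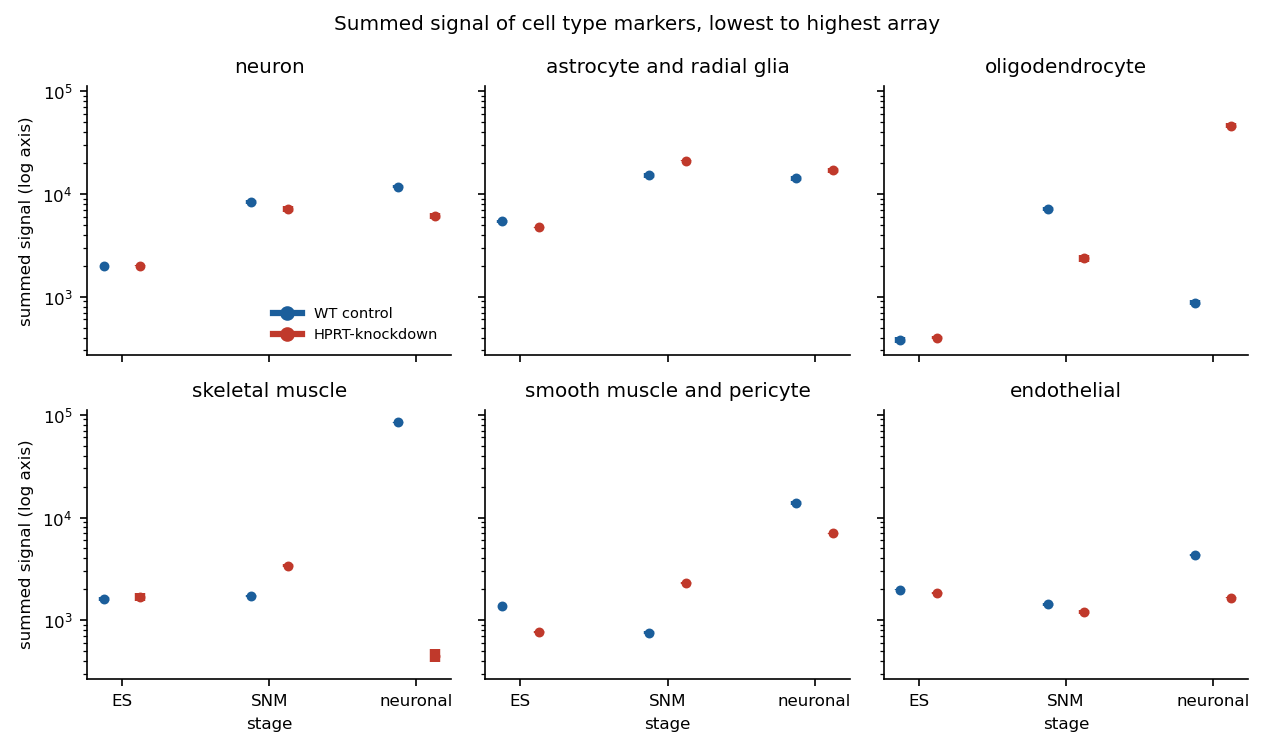
Summed signal of the markers of 6 cell types (vertical axis, log scale, arbitrary units) at the 3 stages (horizontal axis) in WT control (blue) and HPRT-knockdown (red) cells; bars span the lowest to the highest of 3 arrays and points are at the geometric middle of that span. At the neuronal stage oligodendrocyte markers are higher and skeletal muscle markers lower in the knockdown, and the neuron sum is lower too. The smooth muscle and pericyte sum and the endothelial sum are also lower, each carried by 1 bright marker (Acta2 and Emcn). Of the other tested members, Cdh5 was lower too, and the rest were higher or not called.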

How the data were processed

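Total RNA of replicated cultures was pooled per condition and hybridized to 3 Illumina MouseWG-6 v2 arrays. For every probe the deposited table lists, array by array, the signal intensity that the scanner software averages over beads, neither background-corrected nor normalized by the authors, and a detection p-value that the authors deposited beside it. A second deposited table supplied probe annotation, and its 72 per-array columns were not used. Conditions were read from sample titles. Intensities were corrected and quantile-normalized with neqc of limma 3.58.1 (R 4.3.3, offset 16, background inferred from the detection p-values), and all 45281 probes were fitted in 1 limma model of the 6 conditions (lmFit, eBayes, two-sided). A gene was represented by its brightest probe, and detection, adjusted p and fold limits are those given above. Where a condition had no detected array, a fold was bounded with the lowest detected signal of each array. The genes named were all 9 genes, up to 4 called genes per list and comparison by size, and the E proteins. Some further receptors and ligands were named, but not all of those listed. For each member that spanned at least 1 on the log2 scale, the 3 most correlated genes were named. The genes and lists were chosen with earlier results of these data known. The fit was tested on simulated data, and a design of 3 against 3 arrays allows no exact permutation p under 0.1. The number of arrays limits the precision of the array readings, and the 1 RNA pool per condition leaves the spread between cultures unmeasured. The arrays of a condition are numbered in the sample titles only, the descriptions reading replicate 3 for all 18, and what a number stands for is not stated. Pairing by the array number in the titles was examined by correlating the deviations of same-numbered arrays from their condition means. These correlations were 0.49, 0.11 and 0.49 for SNM, 0.61, 0.09 and 0.32 for neuronal and -0.09, 0.03 and 0.10 for ES arrays. They were of like size at the SNM and neuronal stages and do not settle whether same-numbered arrays are paired. Alternatives were other background and scaling choices, no or stricter detection, 2-fold, the methods' t-test, fits of the compared conditions only, the array number as a block, the mean over probes, and leaving out each array. Promoters were searched with Python 3.11.15. An RNA-seq experiment of the study was not analysed here.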

Additional observations from a re-analysis of the deposited data

Results flagged for a closer look

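The knockdown difference of 4 of the genes changed between stages by a test of the difference itself, the interaction in the limma fit. From ES to SNM it shifted by +0.67 for Hey1 and by +1.53 for Id4, on the log2 scale. From SNM to neuronal it shifted by +0.90 for Hey1 and by +1.61 for Hey2. For Hes5 the shift from SNM to neuronal was -1.38, from +0.54 to -0.85. For Id4 it was -1.20, from +1.36 to +0.16.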

How the results depend on the processing

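Counts of called genes were within 1.5 times the main count in 151 comparisons with an alternative and outside in 10. With counts this small the limit is wide. It takes in 0 against 0 at the ES stage, and 3 calls against 4 at the neuronal stage, where Heyl was lost without background correction. No called gene reversed its sign under any alternative run. Requiring 2-fold left 1 gene at the SNM stage (Id4), 2 at the neuronal stage (Hey1, Hey2), 1 in the control step from SNM to neuronal (Hes5), 2 in the knockdown step (Hey2, Hes5) and 1 in the shift of the knockdown difference from ES to SNM (Id4). With quantile normalization but no background correction, and with no scaling at all, the knockdown step from SNM to neuronal kept 2 calls, and with upper-quartile or no scaling the shift from ES to SNM kept 1. Leaving out 1 array gave 0 at the ES stage, 2 to 3 at SNM, 3 to 4 at neuronal, 7 in both steps from ES to SNM, 3 to 5 in the control and 3 to 4 in the knockdown step to neuronal, and 2 to 3 and 4 to 4 in the shifts. The array number as a replicate block gave the main counts, 0, 2 and 4 at the 3 stages, and changed no other call. Over all probes, calls without background correction fell from 310 to between 48 and 57 at the ES stage, from 4127 to between 2326 and 2452 at SNM and from 5732 to between 3690 and 3760 at neuronal. Without scaling, the share of higher calls moved from 30.6% to 41.7% at the ES stage and, from ES to SNM, from 48.4% to 69.1% in control and 46.1% to 59.2% in knockdown cells, the median of all probes shifting from -0.08 to +0.10 and from -0.11 to +0.05. For the calls lost with other scaling the cause was not tested. Dim probes limit Hey2 and Heyl, whose folds shrink with uncorrected background.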
